A study of Homo sapiens with 5 samples.

Results

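TEAD4 is a transcription factor whose DNA contacts were mapped by ChIP-seq in LX-2, an established line of human hepatic stellate cells, the liver cells that turn into matrix-producing myofibroblasts in fibrosis. The TEAD4 peaks described here lie inside exons of protein-coding genes. A peak belongs to them when its summit is more than 1 kb from every transcription start site (TSS) of protein-coding and lncRNA genes and falls in coding sequence (CDS) or an untranslated region (UTR) of any transcript of a protein-coding gene. The rule was met by 367 of 21113 peaks (1.74%, Wilson 95% interval 1.57 to 1.92%), or 2.08% of the 17667 peaks more than 1 kb from a TSS, which are called distal below. The study had 3 TEAD4 ChIP samples (replicates 1, 2 and 3) and 2 input samples, all from LX-2 cells given DMSO, the solvent control of the study. The peak list combines replicates 1 and 3 and gives 1 value per peak, so the spread between replicates cannot be stated for any peak, and every interval below covers counting error only. No other treatment and no other genotype were compared, and all samples are of 1 cell line.

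TEAD proteins bind DNA through their TEA domain and recruit the co-activators YAP and TAZ, which the Hippo pathway keeps out of the nucleus when its kinases are active. In many cell types TEAD sites lie mostly in enhancers away from promoters, where AP-1, a dimer of FOS and JUN proteins, often binds beside them. Exons carry a second layer of sequence constraint, since CDS encodes protein and 3' UTRs hold signals for mRNA stability and translation.

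The TEAD motif searched was ACATTCC, looked for on either strand in the 201 bp centred on the summit. The sites shown first are those of the 4 CDS peaks and the 4 3' UTR peaks with the highest signal value among members with the motif inside the exon, because they show the recognition sequence sitting within transcribed, and for the first group protein-coding, letters of hg38. Each run has 29 bases and is written 5' to 3' on the strand that reads ACATTCC, with the 7-base motif in capitals.
AFF1, CDS, chr4:87108184-87108212, + strand: gtggcatcagcACATTCCagcagtgcaga
CD163L1, CDS, chr12:7433427-7433455, + strand: tcccggtgttgACATTCCcagagagctga
THRB, CDS, chr3:24146704-24146732, + strand: ttcttaaagcgACATTCCtggcactgatt
WDR35, CDS, chr2:19933467-19933495, + strand: tgcttgttcacACATTCCaactctgacaa
COL4A2, 3' UTR, chr13:110448428-110448456, + strand: tctaccggacaACATTCCcgagttattgg
COL4A2, 3' UTR, chr13:110448452-110448480, − strand: gcaagtcagtcACATTCCagctcaccaat
SH3TC2, 3' UTR, chr5:149002251-149002279, − strand: caggggcacacACATTCCagaacagttac
SH3TC2, 3' UTR, chr5:149002280-149002308, − strand: tcctttcaacaACATTCCtgggagacagt
DSTYK, 3' UTR, chr1:205144931-205144959, − strand: ttatgaaggtcACATTCCtagcattcttg
SNX33, 3' UTR, chr15:75661239-75661267, + strand: gggcgggaggaACATTCCtgcaccatctc

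Some of these exons also hold the AP-1 motif (TGACTCA, which reads TGAGTCA on the other strand). The following AP-1 sites, in capitals on the + strand, are those of the peaks above that carry both motifs and of the strongest 5' UTR peak, in ANXA2, whose AP-1 site lies 40 bp from the summit in bases that are CDS in another transcript.
AFF1, CDS, chr4:87108217-87108245: gaaagcaccagTGACTCAgacagttcctc
CD163L1, CDS, chr12:7433442-7433470: tcccagagagcTGACTCAtttccataaca
SNX33, 3' UTR, chr15:75661303-75661331: cgcctgcccgcTGACTCAggcctccagga
ANXA2, summit in 5' UTR and site in CDS, chr15:60393079-60393107: tgattaatgacTGAGTCAcagggccaact

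In AFF1, a component of the super elongation complex that helps RNA polymerase II through pausing, the centres of the TEAD and AP-1 sites were 33 bp apart, and they lay 5 and 28 bp from the summit. In CD163L1, a scavenger receptor of the CD163 family, the centres were 15 bp apart and the AP-1 site was 1 bp from the summit. The paired TEAD sites of COL4A2, which encodes a collagen IV chain of basement membranes, faced each other on opposite strands with centres 24 bp apart. Those of SH3TC2, a protein of endosome recycling, lay on the same strand 29 bp apart. In 12 of the 367 peaks the window held more than 1 TEAD site.

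Most exonic peaks were in 3' UTRs. The summit lay in a 3' UTR in 248 peaks (67.6%, interval 62.6 to 72.2%), in CDS in 111 (30.2%, interval 25.8 to 35.1%) and in a 5' UTR in 8 (2.18%, interval 1.11 to 4.24%). A last exon held the summit in 234 of the 248 3' UTR peaks, whereas 76 of the 111 CDS peaks were in internal exons. For 301 peaks the exon belonged to the Ensembl canonical transcript, and for 66 peaks (18%) only to other transcripts. The 3 exonic peaks with the highest signal values, in PDLIM2, ANXA2 and COL4A2, are among the latter, and that of COL4A2 lies in the last exon of a short transcript with 18 exons. In 30 peaks transcripts of the same locus gave the summit more than 1 label, and CDS was then given precedence over UTR.

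The peaks fitted into 3' UTRs and spilled over CDS exons. The median exon holding a 3' UTR summit was 3865 bp long, against 216 bp for CDS, while the median peak was 444 bp wide in both. The whole interval lay in CDS or UTR bases in 219 of 248 3' UTR peaks (88.3%, interval 83.7 to 91.7%) and in 31 of 111 CDS peaks (27.9%, interval 20.4 to 36.9%). Within the 3' UTR the median summit was 46.5% of the way from the stop codon to the transcript end (quartiles, 25.1 and 76.7%), so 3' UTR summits were spread over its length. The median distance to the nearest TSS was 6178 bp, and the longest was 209660 bp. Nearest to the 1 kb limit of the rule, SNAP25 (1010 bp from a TSS, signal value 42.8) and MPDU1 (1060 bp, 65.3) were members, while summits near ENSG00000223774 (991 bp, 82.7), PSMD1 (989 bp, 187.9) and LMO7 (977 bp, 139.4), each named here by the gene of its nearest TSS, were among 577 exonic summits left out for lying within 1 kb.

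Exons held fewer TEAD4 summits per base than introns. Over distal bases, exons of coding genes had 5.96 summits per Mb (exact Poisson 95% interval, 5.36 to 6.60) across 61.6 Mb, introns 7.83 (7.66 to 7.99) and intergenic sequence 5.38 (5.26 to 5.49). The ratio of exon to intron was 0.761 (exact interval, 0.684 to 0.845), and that of exon to intergenic sequence was 1.11 (0.995 to 1.23), an interval that includes 1. CDS had the lowest density of the exon parts, with 4.78 summits per Mb (3.93 to 5.76) and a ratio to intron of 0.611 (0.502 to 0.737). The density was 6.63 per Mb in 3' UTRs (5.83 to 7.50), which was 1.39 times that in CDS (1.10 to 1.75). The 8 summits in 5' UTRs gave 8.21 per Mb, with an interval of 3.55 to 16.2 that covers every other feature. Exons thus made up 2.23% of distal bases and 2.08% of distal peaks. Read depth and mappability by feature were not measured, and their part in these ratios was not tested.

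The median GC content of the 201-bp window at CDS summits was 44.8% (quartiles, 40.8 and 49.0%, n = 111), against 51.7% (43.3 and 61.7%) in 31258 tiles of distal CDS. In 3' UTRs the order was the other way, with 43.3% at 248 summits and 40.3% in 159916 tiles. Distal intronic peaks had a median of 43.3%. The tiles lay wholly in the feature, whereas a window at a summit could reach beyond the exon. For CDS peaks a median of 66.4% of the peak interval was CDS or UTR. Windows and tiles are thus not alike, and the part of sequence outside exons in the CDS difference was not tested. These are descriptions without a test.

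The signal value, the peak caller's measure of enrichment on a scale that is not stated, ran from 6.63 to 653.3 among exonic peaks, with a median of 72.3. The median was 67.7 for distal intronic peaks and 70.4 for intergenic ones. Exonic peaks were above the median of the whole list in 198 of 367 cases (54.0%), against 49.8% of distal intronic peaks (odds ratio 1.18, 95% interval 0.959 to 1.46, Fisher's exact test, adjusted p = 0.275). The difference of 4.18 percentage points had an interval of −1.04 to 9.32, so it was not distinguishable from 0 at this number of peaks. Among the parts, the median was 82.5 in CDS, 69.1 in 3' UTRs and 98.5 in the 8 peaks of 5' UTRs. The highest IDR score, 1000, was given to 283 exonic peaks (77.1%) and to 75.8% of intronic peaks. A q-value above 0.05 was listed for 7 exonic peaks.

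The strongest exonic peak was in a 3' UTR of PDLIM2, a PDZ and LIM domain protein tied to actin (chr8:22597347-22597849, signal value 653.3), 1995 bp from the nearest TSS, which belongs to C8orf58. ANXA2, a calcium-dependent membrane-binding annexin, followed with a peak in 5' UTR exon 2 of a transcript with 14 exons (chr15:60392915-60393419, 643.8). COL4A2 (chr13:110448183-110448680) had 598.1 and SH3TC2 (chr5:149002054-149002488) had 567.4. Among CDS peaks, PLEKHH1 was highest (chr14:67557129-67557526, 520.1), in exon 4 of 29, with neither the TEAD nor the AP-1 motif in the window. The window of DSTYK, a kinase gene (chr1:205144742-205145125, 451.9), held 1 TEAD site 3 bp from the summit. AFF1 (chr4:87108041-87108410, exon 11 of 21) had 423.4. The 3' UTR of SHROOM3, an actin-binding protein that shapes epithelial cells, had 416.5 (chr4:76782819-76783204), and 14 further TEAD4 peaks lay in introns of that gene. SNAP25, a SNARE protein of vesicle fusion, had 379.1 (chr20:10307030-10307434), and BTD, the enzyme biotinidase, had 366.4 (chr3:15645995-15646446). Of these 10 peaks, 7 were in 3' UTRs, 4 had the TEAD motif and 3 had AP-1.

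The TEAD motif was found in exonic peaks at a share close to that of all TEAD4 peaks and far more often than beside them. The window held it in 85 of 367 exonic peaks (23.2%, interval 19.1 to 27.7%), where the share among all 21113 peaks was 23.0%. In windows of equal width 2000 bp to either side the share was 22 of 734 (3.0%), giving an odds ratio of 9.75 (interval 5.98 to 15.9, Fisher's exact test, adjusted p = 5.51e-24). Exonic tiles at large held it in 3.06% of cases. Against the 8765 distal intronic peaks, with 2016 (23.0%), the odds ratio was 1.01 (0.788 to 1.29, Fisher's exact test, adjusted p = 1.00), and the difference in share was 0.160 percentage points (−3.96 to 4.82). CDS peaks had 21.6% and 3' UTR peaks 24.6% (odds ratio 0.846, interval 0.495 to 1.45, Fisher's exact test, adjusted p = 1.00), a difference whose interval ran from −11.7 to 6.89 points. None of the 8 5' UTR peaks had the motif, and Wilson's interval allows up to 32.4%.

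Most TEAD sites lay within exon letters, which the rule favours because it places every summit in CDS or UTR. Of 98 TEAD sites in the windows, 95 were wholly in CDS or UTR, in 83 of the 85 peaks with a site. They numbered 22 of the 24 CDS peaks with a site and all 61 of the 3' UTR peaks with one. Sites of other motifs in these windows were also mostly wholly exonic. The numbers were 97 of 112 for AP-1 (86.6%), 35 of 39 for RUNX (89.7%) and 74 of 83 for the E-box CAGATG (89.2%). A difference between motifs was not tested. TEAD sites clustered at the summit, with a median distance of 18 bp, and 62 of 98 (63.3%) were within 25 bp. The motif read ACATTCC on the coding strand in 33 of 82 peaks that could be oriented (40.2%, 30.3 to 51.1%, exact binomial test, p = 0.0970), and thus without a detectable preference for a strand. Exonic peaks with the motif had a median signal value of 97.4 (n = 85) and those without had 69.1 (n = 282), and the corresponding values in introns were 82.0 and 64.1. When the 367 peaks were ranked by signal value in 4 equal groups, the share with the motif was 16.3%, 17.4%, 25.3% and 33.7% from the lowest group to the highest.

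**Figure D1:**
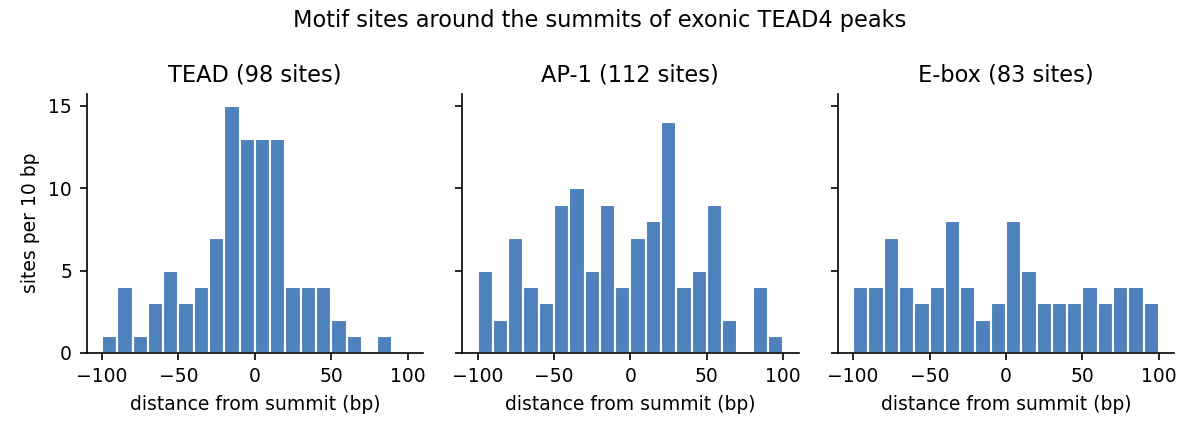
Number of motif sites per 10 bp (y axis) by the distance of the site's centre from the summit in bp (x axis), for TEAD, AP-1 and the E-box in exonic peaks. TEAD sites pile up at the summit (median distance 18 bp), AP-1 sites spread more widely (37 bp), and E-box sites run evenly over the window (48.5 bp).

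AP-1 and RUNX motifs were present at shares close to those in introns. AP-1 sites were in 99 exonic peaks (27%, interval 22.7 to 31.7%), beside 25.4% of all peaks, 27.2% of distal intronic peaks (odds ratio 0.991, interval 0.783 to 1.25, Fisher's exact test, adjusted p = 1.00) and 2.82% of exonic tiles. The difference from introns was −0.178 points (−4.57 to 4.67). CDS and 3' UTR peaks had 27% and 26.6% (odds ratio 1.02, interval 0.617 to 1.69, Fisher's exact test, adjusted p = 1.00). AP-1 sites were wholly exonic in 89 of these 99 peaks and lay a median of 37 bp from the summit. Median signal values with and without AP-1 were 70.9 and 74.5, and the share with AP-1 in the 4 groups by signal value was 27.2%, 29.3%, 26.4% and 25%.

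The motif TGTGGTT of RUNX factors was in 36 exonic peaks (9.81%, interval 7.17 to 13.3%), against 9.53% of all peaks and 10.2% of distal intronic peaks (odds ratio 0.960, interval 0.676 to 1.36, Fisher's exact test, adjusted p = 1.00), and in 3.66% of exonic tiles. Both TEAD and AP-1 were in 15 peaks (4.09%), against 4.78% of distal intronic peaks, and neither was in 198 (54.0%), against 54.6%. The strongest of the 15 peaks with both were in AFF1, SNX33, CNKSR3, CD163L1 and CMTM4, with signal values of 213.5 to 423.4. The median of the 15 was 97.4 and the lowest value was 42.1.

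The E-box CAGATG was in 78 exonic peaks (21.3%, interval 17.4 to 25.7%), against 16.7% of all peaks. In distal intronic peaks it was 17.2% (odds ratio 1.30, interval 1.00 to 1.67), which missed the threshold after adjustment (Fisher's exact test, adjusted p = 0.148). Tiles laid without regard to peaks differed in the same direction, with 17.2% of CDS tiles, 13.3% of 3' UTR tiles and 12.8% of intron tiles. CDS peaks had 27% (19.6 to 36.0%) and 3' UTR peaks 19.0% (14.6 to 24.3%).

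The TEAD motif read backwards (CCTTACA), a control of equal base composition, was more frequent in exonic than in intronic peaks, and zinc finger genes held much of it. It was in 17 exonic peaks (4.63%, interval 2.91 to 7.29%), beside 2.00% of all peaks and 2.05% of distal intronic peaks (odds ratio 2.32, interval 1.39 to 3.85, Fisher's exact test, adjusted p = 0.0122). Of the 8 CDS peaks with it, 6 were in ZNF genes, which encode transcription factors built from repeats of C2H2 zinc fingers, and 6 of the 7 CDS peaks in ZNF genes had it. Leaving out peaks in ZNF genes was chosen after the data were seen, and it removed 7 of the 17 exonic peaks with the backwards motif. The shares were then 10 of 355 exonic peaks (2.82%) and 2.03% of intronic ones. The odds ratio was 1.40 (interval 0.735 to 2.68, Fisher's exact test, adjusted p = 0.603). The difference also missed the threshold with the motif within 50 bp of the summit (Fisher's exact test, adjusted p = 0.255) and among peaks above the median signal value (Fisher's exact test, adjusted p = 0.127).

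The forward TEAD motif stood in the same repeats. Of the 7 CDS peaks in ZNF genes, which lay in 5 genes, 5 had it, against 19 of the 104 other CDS peaks. In 201-bp tiles of distal CDS, laid from the start of each CDS block without regard to peaks, 334 of 3315 tiles of ZNF genes held it (10.1%, interval 9.10 to 11.1%), against 2.46% of 42639 tiles of other genes. The 7 sites are shown because their flanks are nearly the same from gene to gene, with ACATTCC in capitals.
ZNF283, chr19:43848144-43848172, − strand: aaagccttcccACATTCCttacattcata
ZNF404, chr19:43872871-43872899, + strand: aaggtttttccACATTCCttacattcata
ZNF699, chr19:9295617-9295645, + strand: aaagcttttccACATTCCagacattcaaa
ZNF699, chr19:9295701-9295729, + strand: aatgctttcccACATTCCttacattcata
ZNF699, chr19:9296625-9296653, + strand: aaggctttggtACATTCCttacattcata
ZNF699, chr19:9296709-9296737, + strand: aaggccttcccACATTCCttgcactgata
ZNF780B, chr19:40036170-40036198, + strand: aaggcttttccACATTCCttacattcaaa

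In 5 of these runs the letters after the first 5 of the motif read CCTTACA, so the forward and backwards motifs share 2 bases there. The sites within each ZNF699 peak had centres 84 bp apart. How uniquely reads map to these exons was not measured, and the effect there of the mapping quality threshold that the authors had set was not tested. The 2 ZNF404 peaks, which were summits of the same interval, had signal values of 280.7 and 134.5. The other CDS peaks in ZNF genes had 156.4 in ZNF655, 138.1 and 32.8 in ZNF699, 123.8 in ZNF780B and 103.9 in ZNF283. Without peaks in ZNF genes the TEAD motif was in 77 of 355 exonic peaks, and its odds ratio against the flanks was 9.09 (interval 5.50 to 15, Fisher's exact test, adjusted p = 4.72e-21).

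Host genes were many, and few held more than 1 exonic peak. When each peak was assigned to 1 gene, 329 genes hosted the 367 peaks, and 35 of them hosted more than 1. CNKSR3, a scaffold protein, had 4 peaks in a last exon of 19138 bp, with signal values of 317.0, 102.7, 68.9 and 32.7. The strongest of these windows held 2 TEAD sites, 1 AP-1 site and 1 RUNX site, and the other windows held no TEAD site. SH3TC2 had 3 peaks in a last exon of 22753 bp (567.4, 122.5 and 15), of which the strongest had both TEAD sites of the gene. The summit nearest to that of the strongest was 201 bp away. The other genes had 2 at most. Among them were BTD (366.4 and 117.2) and COL12A1, which encodes a fibril-associated collagen (92.5 and 89.9). In 5 intervals 2 member summits shared the same start and end. The 367 peaks lay in 350 merged regions of overlapping intervals, so a gene with more than 1 peak need not hold more than 1 separate region.

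Most host genes had other TEAD4 peaks besides the exonic one. A peak in an intron of the host gene was found for 165 of 329 host genes (50.2%, interval 44.8 to 55.5%), against 18.6% of 20033 protein-coding genes, and a peak within 1 kb of a TSS of the gene for 76 (23.1%, interval 18.9 to 27.9%), against 12.3%. The host genes were longer, with a median span of 79.8 kb against 27.5 kb for all coding genes, and the part of length in these shares was not tested. Neither kind of peak was found for 131 host genes (39.8%). The nearest TSS was that of another gene for 127 of the 367 peaks (34.6%). Another summit lay within 10 kb of 159 exonic peaks (43.3%, interval 38.3 to 48.4%), against 49.1% of distal intronic peaks (48.0 to 50.1%).

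Counting every gene whose CDS or UTR held a summit, 336 of 20007 protein-coding genes (1.68%) had an exonic TEAD4 peak. The share was higher in genes with more distal exon sequence, at 0.303% of 4621 genes with under 1 kb and 6.31% of 1363 genes with over 8 kb. Each list below that held a peak is therefore also given by its exonic peaks per Mb of distal exon with the exact Poisson interval, which was 5.81 for all coding genes (5.23 to 6.44), and no list was tested.

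Of 22 textbook targets of YAP and TEAD, 2 had an exonic peak (9.09%, interval 2.53 to 27.8%), beside 1.68% of all coding genes. They were CCDC80, a secreted matrix protein (3' UTR, chr3:112604538-112604786, signal value 137.0, with 1 AP-1 site), and GADD45A, a DNA damage response gene (3' UTR, chr1:67687594-67688037, 62.9). These 2 peaks gave 21.6 per Mb, with an interval of 2.62 to 78.1 that includes the value of all coding genes. None of 34 Hippo pathway genes had one, which allows a share of up to 10.2% by Wilson's interval. Of 44 collagen genes, 2 had one (4.55%, interval 1.26 to 15.1%), namely COL4A2 and COL12A1, and their 3 peaks gave 12.3 per Mb (2.54 to 35.9). The COL12A1 peaks were in coding exons 10 and 16 of 66 (chr6:75183059-75183502 and chr6:75155507-75155950), and the second had a TEAD site. No exonic peak was found in 51 matrix glycoproteins and proteoglycans, in 22 collagen-modifying enzymes or in 82 ribosomal protein genes, with upper bounds of 7.0%, 14.9% and 4.48%. Of 30 integrin genes, ITGA2, a collagen receptor subunit, had a 3' UTR peak (67.1), or 7.92 per Mb (0.20 to 44.1). Of 52 genes of focal adhesions and the actin cytoskeleton, 2 had one: TPM1, a tropomyosin (114.1), and LPP, a LIM protein of focal adhesions (83.2, with a TEAD site), or 8.11 per Mb (0.982 to 29.3). The 509 ZNF genes had 8 with an exonic peak (1.57%, interval 0.799 to 3.07%), or 4.92 per Mb (2.46 to 8.81).

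The study listed genes by their response to an inhibitor of O-GlcNAc transferase (OGTi), the enzyme that attaches O-GlcNAc to proteins, in other samples of LX-2 cells. Of 1198 protein-coding genes listed for loss of H3K27ac, a histone mark of active enhancers and promoters, 56 had an exonic peak (4.67%, interval 3.62 to 6.02%, beside 1.68% of all coding genes), with 14 peaks per Mb of distal exon (10.7 to 18.2). Entries that matched a protein-coding gene were 70.4% of that list. The study had assigned H3K27ac regions to genes by nearness to a TSS or by predicted links between promoters and distal regions. Whether the exonic peaks lie in the regions that lost the mark was not examined here. The list of genes downregulated in LX-2 cells under OGTi was cut by the study to the significant genes with the most pronounced fold changes. Of its 485 matched genes, 22 had one (4.54%, interval 3.01 to 6.77%), with 13.1 per Mb (8.48 to 19.3). The median distal exon length per gene was 2.55 kb and 3.03 kb in these lists, against 2.34 kb over all coding genes. Genes linked to gained or unchanged H3K27ac, genes upregulated under OGTi and genes expressed in LX-2 cells were not counted. Whether the higher shares are particular to loss or downregulation was thus not tested. TEAD4 binding under OGTi was not analysed here.

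The strongest exonic peaks in the list of H3K27ac loss were in COL4A2 (598.1), SHROOM3 (416.5), DDAH1, which degrades methylated arginines (260.4, 3' UTR), RAB11FIP1, an effector of recycling endosomes (224.7, CDS), CMTM4 (213.5, 3' UTR) and SSUH2 (195.0, CDS). CMTM4 had a TEAD and an AP-1 site and SSUH2 had 2 AP-1 sites. Among the downregulated genes they were in GDNF, a neurotrophic growth factor (217.3, 3' UTR), DCLK1, a microtubule-associated kinase (206.1 and 164.2, 3' UTR), ARID5B (183.2, 3' UTR), HTR1D, a serotonin receptor (178.7, 5' UTR), and LRRC7 (171.8, CDS). ARID5B, HTR1D, CCDC80, TPM1 and LPP were among the genes in both lists. Other members were named after their values were seen. One was the cytokine gene IL6, with a summit in the last of its 5 exons (CDS, chr7:22731349-22731568, 127.7). The ligand gene WNT5A (3' UTR, 40.9), the EMT factor SNAI1 (3' UTR, 47.7) and the signalling inhibitor SOCS3 (3' UTR, 31.1, with a TEAD site) were the others. By signal value WNT5A, SNAI1 and SOCS3 ranked 308, 275 and 355 among the 367 exonic peaks.

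Of the 71 liver fibrosis matrisome genes of the study, 3 had an exonic peak (4.23%, interval 1.45 to 11.7%): COL4A2, COL12A1 and FRAS1, a basement membrane protein (CDS, exon 71 of 74, 40.7). Their 4 peaks gave 12.8 per Mb (3.50 to 32.9). Of its 61 liver fibrosis genes, 2 had one (3.28%, interval 0.904 to 11.2%), again COL4A2 and COL12A1, or 9.76 per Mb (2.01 to 28.5). For both lists the intervals of the share and of the density include the values of all coding genes.

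The 8 peaks in 5' UTRs were the smallest group. They were in ANXA2 (643.8), HTR1D (178.7), FABP12 (127.9), ELK3 (113.8), BIRC3 (83.2), CRISPLD2 (71.8), CX3CL1 (54.7) and LMO7 (6.63). AP-1 sites were present in ANXA2, BIRC3 and CX3CL1. In 6 of the 8 the summit was in exon 2 of the transcript, and the distance to the nearest TSS ranged from 1153 to 16689 bp.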

How the data were processed

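LX-2 cells given DMSO had yielded 3 biological replicates of TEAD4 ChIP-seq and 2 inputs. The authors mapped reads to hg38 with Chromap under a mapping quality threshold, and ran the ENCODE IDR pipeline, which compares the ranks of peaks between replicates. The authors reported sufficient concordance for replicates 1 and 3 only. Replicate 2 was left out by them, and the pipeline was run again on replicates 1 and 3. The peaks are thus those of replicates kept for their concordance. The deposited list holds peaks of these replicates together. Its score is the scaled IDR of a peak, its signal value is the peak caller's enrichment and its −log10 q-value comes from the same step, and its last column is the summit offset, all as deposited by the authors. What each column holds was inferred from its layout and range. The peak caller and the scale of the signal value are not given in the sources used here. Depth per sample is unknown, no value per replicate was analysed here, and intervals cover counting error over peaks, bases or genes only.

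All 21113 peaks end inside the hg38 chromosomes. Transcripts came from GENCODE release 44. A summit was called CDS where any transcript of a protein-coding gene had CDS there, otherwise 3' UTR, otherwise 5' UTR. Comparators were other distal summits inside coding genes (intronic) and outside them (intergenic), and windows 2000 bp to either side. Tiles of 201 bp lying wholly in each feature were also used (every 10th tile for introns). Differences in shares were tested with Fisher's exact test (two-sided, p-values adjusted over 9 tests after Benjamini and Hochberg), and motif strand by a two-sided exact binomial test. Peaks of 1 list are not replicates and neighbouring peaks are not independent, so p-values are approximate. The test against flanks also treated each peak and its own flanks as unmatched. Shares have Wilson 95% intervals, densities exact Poisson intervals, their ratios exact conditional intervals and differences of shares Newcombe's intervals.

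Genes named were the 10 members with the highest signal value, the 4 highest with a TEAD site in CDS and in 3' UTR, list members (up to 6 a list) and genes with the most members (up to 5); others are marked. The members, gene lists, tests and named genes were chosen with earlier results of these data known. Symbols of the study's lists were matched directly or through the RefSeq table of GRCh38. Scripts were tested on simulated data. Alternatives changed the peak set, the distance to a TSS, the exon definition, the motif window, the flanks and the GC adjustment. The calculations used Python 3.11.15, scipy 1.17.1, pysam 0.24.0, numpy 2.4.6, statsmodels 0.14.6, matplotlib 3.10.9 and pandas 2.3.3.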

Additional observations from a re-analysis of the deposited data

How the results depend on the processing

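The 12 results were recomputed under 11 alternative settings, each where it applied, which gave 107 values. Of these, 89 kept the direction and the side of the threshold (tests), stayed within 1.5 times the reported count (number of exonic peaks) or stayed within the interval of the reported value (ratio of peaks per Mb in exons to introns). The odds ratios that crossed 1 lay near 1 throughout, and all of them missed the threshold on both sides. For the TEAD motif in exonic against intronic peaks the odds ratio was 0.977 with the highest IDR score only and with any exon line of coding genes, 0.975 with 1 peak per merged region, 0.958 with the motif within 50 bp, 0.989 above the median signal value and 0.931 without peaks in ZNF genes. For AP-1 it was 1.05 with the motif within 50 bp and 1.01 without ZNF genes. For RUNX it was 1.07 with the highest IDR score, 1.05 over 2.5 kb from every TSS, and 1.02 in canonical transcripts and above the median signal value. For AP-1 in CDS against 3' UTR peaks it was 0.920 over 2.5 kb from every TSS and 0.998 with the motif within 50 bp. The E-box passed the threshold with any exon line (odds ratio 1.37, adjusted p = 0.0304, Fisher's exact test). The TEAD motif read backwards missed it within 50 bp (2.22), above the median signal value (2.37) and without ZNF genes (1.40), each with fewer peaks with the motif. The last setting was chosen after the data were seen. The causes of the other changes were not tested. No paired analysis was possible because each peak has 1 value for replicates 1 and 3 together, so leaving replicates out was not possible either. Depth, which the list does not give, sets which exonic peaks could be called at all.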
